A study of Mus musculus with 16 samples.

Results

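Cells given a MEK inhibitor after induction (group rev) were compared with cells induced for 2 h (group 2h). The comparison held the 4 rev and the 4 2h libraries, chosen by sample title, which are 8 of the 16 libraries of the series. All came from the mouse line CRAFR26, in the cell state that the labels call RSC. Its medium was N2B27 with LIF and with IWP2, which blocks the secretion of Wnt ligands. The cells carry a c-RAF kinase construct that 4-hydroxytamoxifen switches on. In all 4 groups the MEK inhibitor of the usual medium, PD0325901, had been replaced for 48 h by 250 nM of PD173074, an inhibitor of FGF receptors. Group 0h received no tamoxifen, and groups 2h and 4h received 250 nM of it for 2 h and 4 h. Group rev received tamoxifen for 4 h and then a MEK inhibitor for 2 h, at a dose that the labels do not give. Each group held 4 libraries, 2 from clone 4 and 2 from clone 8, so that each clone stands for 1 derived line. The labels do not say whether the 2 libraries of a clone came from separate cultures, so p-values measure the spread between these samples, which may be technical. In the main test that spread also holds differences between the clones in the size of a change, in any of the 4 groups.

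Both groups were taken 2 h after a compound was added to the medium. It asks which transcripts differed between a state with the c-RAF construct switched on and a state in which signalling to ERK was blocked. Cells at rev had also been in culture longer since tamoxifen was first added. The effect of the inhibitor and that of the longer time cannot be told apart here.

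ERK is the last kinase of the RAF, MEK and ERK cascade, through which growth factors such as FGF act on transcription. Active ERK phosphorylates nuclear factors, and the immediate-early genes of the EGR, FOS and JUN families are transcribed soon after, with no new protein needed. Sprouty and Spred proteins and dual-specificity phosphatases are made next and damp the cascade in turn. Their transcripts are short-lived, and so serve as a readout of current ERK activity. In mouse pluripotent cells, ERK signalling is known for promoting exit from the naive state.

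The 8 libraries held 6.16 to 10.4 M counts. A set of 8 features, most of which are ribosomal RNA or lie where ribosomal sequence is repeated, took 46.7% to 78.9% of these counts. The rev library 1 of clone 8 stood apart, with 78.9% of its counts in those features and 1.30 M counts outside them, where the other 7 libraries held 2.94 to 5.46 M. In CPM, 3 counts (the floor used here) came to between 0.21 and 0.908. CPM is the count divided by, in units of 1 M, the scaled total of all tested genes, ribosomal features included. On the 500 most variable genes of these 8 libraries, the first principal component (76.3% of the variance) separated the clones. The second (11.5%) separated the groups, with scores of 6.64 to 10.1 at 2h and -13.2 to -4.55 at rev. All 10 naive and all 12 general pluripotency genes of the lists passed the filter on low counts in these cells, and none of 8 fibroblast markers did. Summed over the naive list, levels were 1472 to 2122 CPM at 2h and 1614 to 2235 CPM at rev.

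Of 12742 tested genes, 129 were lower and 98 were higher at rev than at 2h, at an adjusted p under 0.05 (edgeR's quasi-likelihood test, Benjamini-Hochberg adjustment over all tested genes). These are 1.78% of the tested genes in either direction, 1.01% lower and 0.769% higher. The median log2 change was -0.59 over the 129 lower genes and 0.77 over the 98 higher genes, and -0.01 over all tested genes. A change of at least 1 on the log2 scale was called in 35 lower and 25 higher genes. The change had the same sign in both clones for all 129 lower and all 98 higher genes. The calls come from a fit with 1 change for both clones, so genes with opposite changes were unlikely to be called. That fit has 1 clone term for all 4 groups, 0h and 4h included. Its error thus also holds differences between the clones in these changes, and its value need not lie between those of the 2 clones. All 4 rev libraries lay below all 4 2h libraries for 99 of the lower genes, and above them for 63 of the higher genes. Such a gap, in either direction, was found for 6.36% of all tested genes. With scaling by library totals, which moved the median change of all genes to -0.35, the count was 157. Higher genes made up 8.28% of these calls, but 43.2% of the calls after TMM scaling. The count was 831 with the 8 libraries fitted alone and 1155 with separate terms for each group in each clone. It fell to between 80 and 141 without rev library 1 (80), rev library 2 (119), 2h library 1 (136) or 2h library 2 (119) of clone 4, or without 2h library 2 (122) or rev library 2 (141) of clone 8. Without the rev library 1 of clone 8, 157 genes were called, 90 lower and 67 higher. An unadjusted p under 0.05 was reached by 1945 genes.

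**Figure D1:**
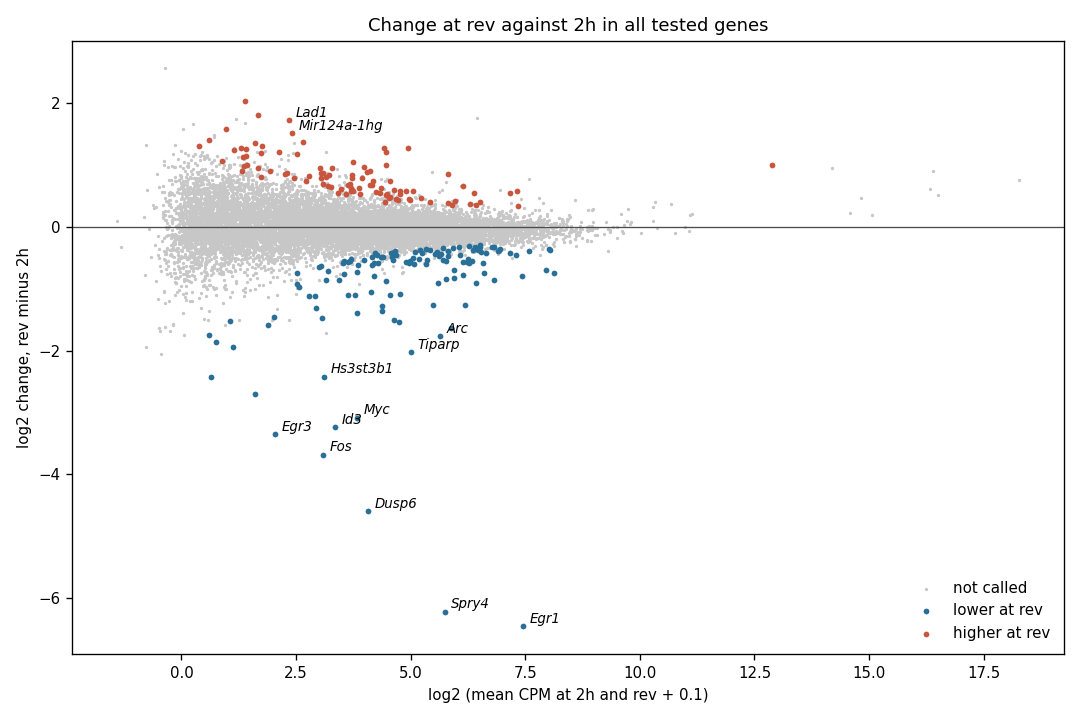
Change at rev against 2h (log2, vertical axis) by mean level at 2h and rev (log2 of CPM plus 0.1, horizontal axis) for the 12742 tested genes, with the 129 lower genes in blue, the 98 higher genes in red and the others in grey. The largest falls, of Egr1 (-6.46) and Spry4 (-6.23), lie below all other genes, the next being Dusp6 (-4.60), and no rise is of that size.

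Of 18 tested feedback inhibitors of the ERK cascade, 6 fell at rev and none rose, with a median log2 change of -0.59. The 6 were Spry4, Dusp6, Spry2, Dusp1, Il17rd and Spred2. Spry4 (chr18:38586247-38601415, GRCm38), a Sprouty protein that inhibits signalling from receptor tyrosine kinases to ERK, was at 120 and 141 CPM in clone 4 and at 82.4 and 78.9 CPM in clone 8 at 2h. At rev it was at 2.26 and 1.46 CPM in clone 4 and at 0.908 and 1.41 CPM in clone 8. All rev libraries were far below all 2h libraries, and close to the 0h libraries, which ran from 0.999 to 3.45 CPM. The log2 change was -6.23 (SE 0.37, adjusted p = 2.03e-09). With separate terms for each group in each clone it was -6.14 in clone 4 and -5.99 in clone 8, so the value of the main fit lies outside both.

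Dusp6 (chr10:99263231-99267489), the cytoplasmic phosphatase that removes phosphate from ERK, was at 33.5 and 35.4 CPM in clone 4 and 31.1 and 28.0 CPM in clone 8 at 2h. At rev its libraries were at 1.47, 1.07, 2.42 and 1.41 CPM. The groups did not overlap. The change was -4.60 (SE 0.42, adjusted p = 9.86e-07). Spry2, another Sprouty protein, was at 45.4, 48.7, 26.8 and 27.1 CPM at 2h and at 11.6, 17.3, 8.78 and 12.5 CPM at rev. It was higher in clone 4 than in clone 8 at 2h, yet every rev library was below every 2h library, and the change was -1.51 (SE 0.16, adjusted p = 7.4e-06).

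The other members of the list that fell did so by less. Dusp1, a nuclear phosphatase of MAP kinases, changed by -0.72 (SE 0.15, adjusted p = 0.0138), with 13.2 to 24.5 CPM at 2h and 7.42 to 14.0 CPM at rev. The ranges of the groups overlapped, though in each clone both rev libraries were below both 2h libraries. Il17rd, a membrane protein also known as Sef that restrains FGF signalling, changed by -0.45 (SE 0.11, adjusted p = 0.0452). Spred2, a membrane-bound inhibitor of RAF activation, changed by -0.40 (SE 0.09, adjusted p = 0.0324), from 37.5 to 40.8 CPM at 2h to 27.6 to 31.5 CPM at rev.

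Members of the list that were not called included genes with sizeable differences and wide error. Dusp4, a nuclear phosphatase, had a change of -1.72 (SE 0.50, adjusted p = 0.0893), from 8.82 to 15.6 CPM at 2h to 2.23 to 5.65 CPM at rev. All of its rev libraries were below all of its 2h libraries. Dusp5 (-0.80, adjusted p = 0.17), Spry1 (-0.77, adjusted p = 0.211) and Spred1 (-0.74, adjusted p = 0.312) also missed the threshold. Nab1 and Nab2, which bind EGR proteins and repress their targets, had changes of 0.30 (SE 0.32) and 0.23 (SE 0.28). Spry3 had 0 counts in all 16 libraries. Without the 2h library 2 of clone 4, the rev library 1 of clone 4 or the rev library 2 of clone 8, 3 members of the list were called instead of 6, and without the rev library 1 of clone 8, 4 were.

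Of 19 tested immediate-early genes, 7 fell and none rose, with a median log2 change of -0.60. The 7 were Egr1, Fos, Egr3, Myc, Jun, Junb and Ier2, and without the rev library 1 of clone 8 the count was 6. Egr1 (chr18:34859823-34864984), a zinc finger transcription factor, had the largest change of all tested genes. It was at 457 and 572 CPM in clone 4 and at 180 and 169 CPM in clone 8 at 2h. At rev it was at 6.55 and 5.04 CPM in clone 4 and at 3.63 and 2.69 CPM in clone 8. Clone 4 was above clone 8 in both groups, and the drop was of like size in each, -6.48 in clone 4 and -5.86 in clone 8. In the fit with 1 change for both clones, the change was -6.46 (SE 0.36, adjusted p = 1.02e-09).

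Fos (chr12:85473890-85477273), a subunit of the AP-1 transcription factor, was at 18.3 and 26.7 CPM in clone 4 and 8.96 and 8.27 CPM in clone 8 at 2h, and at 1.36, 1.46, 0.908 and 1.02 CPM at rev. The groups did not overlap, and the change was -3.68 (SE 0.30, adjusted p = 2.36e-07). Egr3, another EGR factor, behaved unlike Egr1 in clone 8, where it was hardly detected at 2h. Its 2h libraries held 109 and 95 counts in clone 4 and 12 and 12 in clone 8, and its rev libraries 15 and 11 counts in clone 4 and 1 and 0 in clone 8. The change was -3.36 (SE 0.36, adjusted p = 1.01e-05), and it rests on clone 4, since both rev libraries of clone 8 were under the floor of 3 counts.

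Myc (chr15:61985391-61990374), a growth-promoting transcription factor, was at 13.2 and 13.3 CPM in clone 4 and 39.3 and 36.4 CPM in clone 8 at 2h. At rev it was at 3.61 and 4.37 CPM in clone 4 and 2.12 and 1.28 CPM in clone 8. The clone with more Myc at 2h thus had less at rev, and the groups did not overlap (-3.09, SE 0.44, adjusted p = 0.000436). Jun, the partner of Fos in AP-1, changed by -1.48 (SE 0.33, adjusted p = 0.0249). Its libraries were at 17.9, 26.5, 3.42 and 3.15 CPM at 2h and at 6.66, 5.63, 1.21 and 2.17 CPM at rev, so that clone 4 at rev was above clone 8 at 2h. The call for Jun was lost without either 2h or either rev library of clone 4, and without the rev library 1 of clone 8.

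Junb, another AP-1 subunit, changed by -1.10 (SE 0.27, adjusted p = 0.0371), and Ier2, a nuclear regulator, by -0.78 (SE 0.14, adjusted p = 0.0054). In both genes every rev library was below every 2h library. The member of the AP-1 group Jund had a change in the other direction that was not called (0.43, SE 0.16, adjusted p = 0.2). Fosl1 had -1.51 (SE 0.43, adjusted p = 0.0835) and Fosl2 -0.60 (SE 0.45, adjusted p = 0.581). Nr4a1, an orphan nuclear receptor that is an immediate-early gene in many cells, had 0.03 (SE 0.16), and Srf, the factor that binds serum response elements, had -0.12 (SE 0.13). Egr2, Egr4 and Fosb did not pass the filter, with at most 34, 3 and 9 counts in any 2h library.

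**Figure D2:**
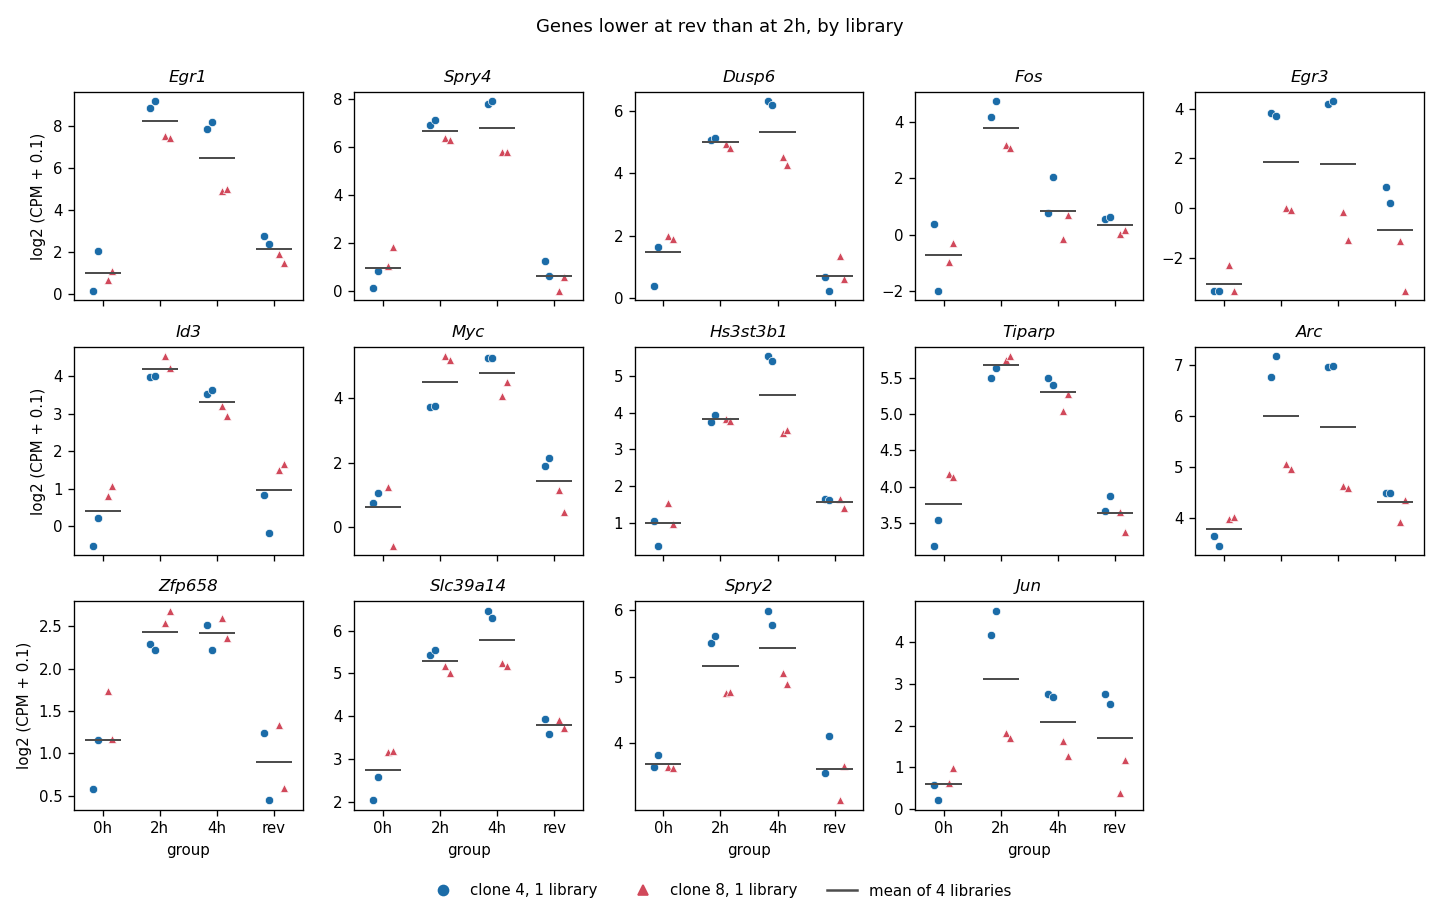
Level (log2 of CPM plus 0.1, vertical axis) of 14 named lower genes in each of the 16 libraries by group (horizontal axis), with circles for clone 4, triangles for clone 8 and a bar at the mean of 4 libraries. In 12 of the 14 genes all 4 rev libraries are below all 4 2h libraries, the exceptions being Egr3 and Jun, where clone 8 at 2h is low.

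Among 10 genes of a published score of MAP kinase pathway activity, 5 fell and none rose, with a median log2 change of -1.29. They were Spry4, Dusp6 and Spry2, given above, with Phlda1 and Epha2. Phlda1, a cytoplasmic protein with a pleckstrin homology domain, was at 5.45, 5.67, 3.57 and 4.63 CPM at 2h and at 0.565, 1.26, 1.82 and 0.512 CPM at rev. These were low levels without overlap (-2.71, SE 0.57, adjusted p = 0.0162), and 33% of its exon length is shared with Gm28592, so its counts are uncertain. Epha2, a receptor of ephrins, was at 137 to 154 CPM at 2h and at 67.5 to 101 CPM at rev (-0.86, SE 0.14, adjusted p = 0.00159). Ccnd1, the G1 cyclin of the same score, had a change of -0.07 (SE 0.29, adjusted p = 0.955).

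Transcripts of the ETS factors, nuclear proteins that ERK acts on, did not pass the test: 0 of 13 were called by edgeR and 0 by DESeq2, 5 had an unadjusted p under 0.05 in the downward direction, and the median change was -0.24. Etv4 had 4.93, 4.70, 11 and 9.11 CPM at 2h and 2.71, 1.75, 3.94 and 6.27 CPM at rev (-1.08, SE 0.43, adjusted p = 0.228). Etv5 had 126 to 168 CPM at 2h and 109 to 142 CPM at rev (-0.24, SE 0.11, adjusted p = 0.294). In each clone both rev libraries of Etv4 were below both 2h libraries, and the same held for Etv5, but neither difference passed the test.

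Of the 20 tested components of the cascade itself, from Ras to the kinases downstream of ERK, 0 were called by edgeR and 0 by DESeq2, and the median change was 0.00. An unadjusted p under 0.05 was reached by 2 members, Map2k2 (0.20, SE 0.09) and Sos2 (-0.64, SE 0.20). Of 10 reference genes none was called by edgeR, 1 had an unadjusted p under 0.05, 9 had a change below 0, and the median change was -0.06.

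Of 11 tested ID and BMP genes, 4 fell and 1 rose. ID proteins are inhibitors of basic helix-loop-helix factors and are known as targets of BMP signalling. Id3 (chr4:136143497-136145755) was at 15.6, 15.9, 23.0 and 18.5 CPM at 2h and at 1.69, 0.776, 2.72 and 3.07 CPM at rev. The groups were well apart in both clones (-3.24, SE 0.27, adjusted p = 2.36e-07). Id1 followed at low level, with 2.07 to 3.11 CPM at 2h and 0.303 to 0.776 CPM at rev (-2.43, SE 0.52, adjusted p = 0.0182). Its rev libraries held 6 and 8 counts in clone 4 and 1 and 3 counts in clone 8, so that clone 8 at rev was at or under the floor of 3 counts.

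Bmp4, the BMP ligand, was at 2.90 to 3.57 CPM at 2h and 0.606 to 1.16 CPM at rev (-1.94, SE 0.39, adjusted p = 0.0116). The rev library 1 of clone 8 held 2 counts of Bmp4, under the floor, and the other rev libraries 6 to 12. Smad7, an inhibitor of TGF-beta and BMP receptors, was at 90.3, 105, 120 and 101 CPM at 2h and at 48.6, 48.0, 34.2 and 34.7 CPM at rev (-1.26, SE 0.24, adjusted p = 0.00716). For each of these 4 genes every rev library was below every 2h library, with the low counts of Id1 and Bmp4 as given. Msx2, a homeobox factor, was higher at rev, with 1.4 to 2.07 CPM at 2h and 3.58 to 5.15 CPM at rev (1.35, SE 0.24, adjusted p = 0.00508). Id2 (0.64, SE 0.26) and Id4 (-0.66, SE 0.25) were not called.

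Of the pluripotency genes, Klf5 fell in the naive list, and Zic2 and Zic5 fell in the formative and primed list. In the naive list 1 of 10 fell, and 0 rose at this threshold, with 1 member above 0 at an unadjusted p under 0.05 and 0 called higher by DESeq2. Other fits did call naive genes higher, 2 with only the 8 libraries and 3 in the group and clone model averaged over clones. In clone 4 alone 1 was called higher, and in clone 8 alone 2 were. The member that fell was Klf5, a KLF factor of naive and trophectoderm cells, at 107 to 114 CPM at 2h and 44.8 to 85.7 CPM at rev (-0.91, SE 0.14, adjusted p = 0.00104). Nanog had 317, 356, 546 and 604 CPM at 2h and 407, 432, 722 and 666 CPM at rev. It was higher at rev in each clone, but the change of 0.30 (SE 0.16, adjusted p = 0.396) was not called. Esrrb (-0.10), Tfcp2l1 (0.13), Klf4 (0.15) and Zfp42 (-0.16) had small changes.

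Of the general list, Pou5f1 (-0.02) and Sox2 (-0.13) were not called. In the formative and primed list 2 of 13 fell, both of them zinc finger factors of the ZIC family. Zic2 changed by -0.84 (SE 0.14, adjusted p = 0.00259) and Zic5 by -1.10 (SE 0.20, adjusted p = 0.00477), and in both genes clone 4 was above clone 8 in both groups.

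Other genes with large falls were in none of the groups above. Hs3st3b1, a sulfotransferase that modifies heparan sulfate, was at 13.4, 15.3, 14.1 and 13.6 CPM at 2h and at 3.05, 3.01, 3.03 and 2.56 CPM at rev (-2.42, SE 0.37, adjusted p = 0.00089). Both groups were tight and did not overlap. With separate terms for each group in each clone, the SE was 0.20 in clone 4 and 0.23 in clone 8. Tiparp, an ADP-ribosyltransferase, was at 45.4, 49.9, 53.9 and 55.9 CPM at 2h and at 12.5, 14.6, 12.4 and 10.2 CPM at rev (-2.03, SE 0.16, adjusted p = 2.36e-07). Slc39a14, a zinc and iron importer, was at 32.2 to 46.9 CPM at 2h and 11.8 to 15.1 CPM at rev (-1.54, SE 0.23, adjusted p = 0.00089).

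Arc, an immediate-early gene of neurons, was at 109 and 145 CPM in clone 4 and 33.4 and 31.2 CPM in clone 8 at 2h, and at 22.4, 22.3, 15.1 and 20.3 CPM at rev (-1.77, SE 0.37, adjusted p = 0.0163). All rev libraries were below all 2h libraries, and the gap was wider in clone 4. The call for Arc was lost without the 2h library 2, the rev library 1 or the rev library 2 of clone 4. Zfp658, a zinc finger gene, was at 4.56 to 6.31 CPM at 2h and 1.26 to 2.42 CPM at rev (-1.58, SE 0.23, adjusted p = 0.000686).

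Among 16 tested YAP and SRF targets 2 fell. Ccn1, a secreted matrix protein, was at 41.6 and 52.9 CPM in clone 4 and 13.1 and 13.7 CPM in clone 8 at 2h, and at 11, 11.3, 11.5 and 9.59 CPM at rev (-1.36, SE 0.25, adjusted p = 0.00596). Its 2 clones differed at 2h and met at rev. Lats2, a kinase of the Hippo pathway, changed by -0.98 (SE 0.25, adjusted p = 0.0446), though 42.4% of its exon length is shared with Gm49361. In the LIF and STAT3 list 1 of 11 fell and 1 rose: Gbx2, a homeobox factor, changed by -1.85 (SE 0.42, adjusted p = 0.0245), with 43.5% of its exon length shared with D130058E05Rik. Cish, a STAT5-responsive signalling inhibitor, had 1.49 (SE 0.42, adjusted p = 0.0739) and was not called.

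In the sterol synthesis list 3 of 22 fell and none rose. Among them was Msmo1, a sterol oxidase (-0.36, SE 0.08, adjusted p = 0.0145). Of the 22 members, 20 had a change below 0, and the list's median was -0.19, against -0.01 over all tested genes. Of the 10 reference genes, 9 were also below 0. The ribosome biogenesis list (0 of 30 called, 3 with an unadjusted p under 0.05, median 0.04), the glycolysis and hypoxia list (0 of 21, 1 unadjusted, median -0.04), the G1 cyclin and CDK inhibitor list (0 of 12, 1 unadjusted, median 0.02), the heat shock list (0 of 9, 1 unadjusted, median -0.03) and the p53 list (0 of 11, 1 higher and 4 lower unadjusted, median 0.00) held no call by edgeR. DESeq2 called 1 p53 target lower and none in the other 4 lists.

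Sequence upstream of the genes was looked at for the 35 named and list genes that were lower. Windows of 250 bases before the start site were taken from RefSeq promoters (GRCm38.p6), which matched 9494 tested genes, 96 of the 129 lower genes and 20 of those 35. They were searched on both strands for the CArG box bound by SRF, the AP-1 site TGANTCA, the cyclic AMP response element TGACGTCA, the ETS core CCGGAA, the EGR site GCGGGGGCG and the E-box CACGTG. None of these motifs is contained in another. The windows below belong to Fos and Dusp6, 2 of the genes with the largest falls, and to Bmp4 and Epha2. The last 2 were picked because their windows hold a match. They are written 5′ to 3′ on the strand of the gene, with matches in capitals.
Fos, chr12:85473640-85473889, plus strand: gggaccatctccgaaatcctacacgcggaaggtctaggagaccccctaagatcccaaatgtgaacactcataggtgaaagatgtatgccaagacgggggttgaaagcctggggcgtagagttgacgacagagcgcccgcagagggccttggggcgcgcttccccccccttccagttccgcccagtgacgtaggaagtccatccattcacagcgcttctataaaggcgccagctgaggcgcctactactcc
Dusp6, chr10:99262981-99263230, plus strand: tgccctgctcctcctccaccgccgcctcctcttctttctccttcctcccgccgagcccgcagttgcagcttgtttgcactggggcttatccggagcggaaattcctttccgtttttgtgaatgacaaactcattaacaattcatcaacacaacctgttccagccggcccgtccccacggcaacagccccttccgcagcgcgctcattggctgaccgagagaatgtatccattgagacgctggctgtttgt
Bmp4, chr14:46390670-46390919, minus strand: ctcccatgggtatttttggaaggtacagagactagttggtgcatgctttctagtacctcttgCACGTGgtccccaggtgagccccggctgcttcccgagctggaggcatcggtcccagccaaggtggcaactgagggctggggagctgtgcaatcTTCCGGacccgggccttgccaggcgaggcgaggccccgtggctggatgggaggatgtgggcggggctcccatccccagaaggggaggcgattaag
Epha2, chr4:141300971-141301220, plus strand: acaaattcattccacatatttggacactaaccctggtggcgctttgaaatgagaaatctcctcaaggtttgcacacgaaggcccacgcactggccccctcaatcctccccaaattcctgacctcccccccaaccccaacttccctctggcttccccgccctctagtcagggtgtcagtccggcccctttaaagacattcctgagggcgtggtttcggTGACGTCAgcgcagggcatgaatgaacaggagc

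The windows of Fos and Dusp6 held none of the 6 motifs. Nor did those of Id3, Jun, Junb, Spry2, Spred2, Il17rd, Hs3st3b1, Ccn1, Zfp658 and Zic5, which are not printed. Those of Tiparp, Gbx2 and Msmo1, also not printed, held 1 match each, as did 1 window of Lats2. That of Bmp4 held an E-box 188 to 183 bases and an ETS core 95 to 90 bases before the start site. That of Epha2 held a cyclic AMP response element 33 to 26 bases before it. Among windows not printed, that of Dusp1 held a cyclic AMP response element at 143 to 136 bases and an E-box at 126 to 121 bases. Over all windows of lower genes, the ETS core was in 24.1% and in 22.1% of the windows of all tested genes. The cyclic AMP response element was in 5.56% against 2.58%, the EGR site in 10.2% against 4.91%, the AP-1 site in 3.7% against 4.03%, the E-box in 9.26% against 8.5% and the CArG box in 0.926% against 1.07%. Over the 52 windows of genes that were lower at rev and higher at 4h, the ETS core was in 15.4%, the EGR site and the cyclic AMP response element in 3.85% each, the E-box in 9.62%, the AP-1 site in 1.92% and the CArG box in 0. These 52 windows belong to 44 genes, and 8 windows held the ETS core and 2 the EGR site. Such counts are small, and their distance from the shares of all tested genes was not tested. Windows of the higher genes held the EGR site in 10.2% and the E-box in 12.2%. These are letter matches in a short window, given as description.

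The 98 genes higher at rev were of many kinds, and 93 of them were in none of the 32 lists. The largest named rise was that of Lad1 (chr1:135818598-135833342), a protein of epithelial basement membranes. It was at 3.24 and 3.46 CPM in clone 4 and 0.836 and 1.4 CPM in clone 8 at 2h, and at 11.4, 13.1, 2.72 and 3.58 CPM at rev. Clone 8 at rev lay at the level of clone 4 at 2h. Within each clone the groups were apart, as the rule for naming genes required (1.73, SE 0.32, adjusted p = 0.00694). Mir124a-1hg, the noncoding host transcript of a microRNA gene, was at 1.94 to 2.98 CPM at 2h and 7.08 to 9.08 CPM at rev (1.52, SE 0.18, adjusted p = 3.8e-05).

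Ngfr (chr11:95568818-95587735), the low-affinity receptor of neurotrophins, was at 12.7, 9.68, 14.2 and 13.0 CPM at 2h and at 34.2, 30.5, 30.9 and 26.2 CPM at rev. All rev libraries were above all 2h libraries (1.28, SE 0.14, adjusted p = 1.33e-05). Map1a (chr2:121289600-121310832), a microtubule-associated protein, was at 21.1, 27.9, 11.2 and 10.6 CPM at 2h and at 55.0, 68.1, 28.2 and 22.5 CPM at rev (1.27, SE 0.12, adjusted p = 1.34e-06). Clone 4 was above clone 8 in both groups, and the rise was 1.33 in clone 4 and 1.18 in clone 8.

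Rgma, a membrane-bound guidance molecule and BMP co-receptor, was at 2.46, 2.49, 4.18 and 4.84 CPM at 2h and at 9.26, 8.15, 9.99 and 8.44 CPM at rev (1.37, SE 0.22, adjusted p = 0.00143). Elf3, an epithelial ETS factor, was at 10.6 to 17.7 CPM at 2h and 24.8 to 37.2 CPM at rev (1.22, SE 0.21, adjusted p = 0.00441). The 0h libraries ran from 6.99 to 9.25 CPM for Rgma and from 31.5 to 39.0 CPM for Elf3. The rev ranges overlapped these for both genes, while the clone 8 rev libraries of Elf3 were below all 0h libraries. Gadd45b, a stress-inducible regulator of growth arrest, was at 6.76 to 14.8 CPM at 2h and 18.2 to 22.2 CPM at rev (0.96, SE 0.17, adjusted p = 0.00457).

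Bcl3, a coactivator of NF-kappaB and a target of STAT3, was at 12.3, 10.4, 12.6 and 10.7 CPM at 2h and at 26, 21.1, 18.8 and 19.2 CPM at rev (0.89, SE 0.14, adjusted p = 0.000977). It was the member of the LIF and STAT3 list that rose. Fzd10, a Wnt receptor, changed by 1.00 (SE 0.19), Kif5a, a kinesin motor, by 1.05 (SE 0.16), Pnpla3, a lipid hydrolase, by 1.19 (SE 0.24), and Sema6c, a semaphorin, by 0.96 (SE 0.19). Dpysl4, a protein of the collapsin response mediator family, changed by 0.96 (SE 0.20), Ryr1, the calcium release channel, by 0.90 (SE 0.16), and Tmem191c by 0.88 (SE 0.19), with 24.9% of the exon length of Tmem191c shared with Gm49573 and Pi4ka. The adjusted p of these 7 genes ran from 0.000882 for Kif5a to 0.021 for Tmem191c. Without the rev library 1 of clone 4, the calls of Pnpla3, Sema6c, Dpysl4 and Tmem191c were lost. That of Dpysl4 was also lost without the rev library 2 of either clone, and that of Tmem191c without either 2h library of clone 4, the 2h library 2 or the rev library 2 of clone 8. With scaling by library totals, 6 of the 15 named higher genes kept their call (Lad1, Mir124a-1hg, Rgma, Ngfr, Map1a and Elf3), as did all 15 named lower genes.

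**Figure D3:**
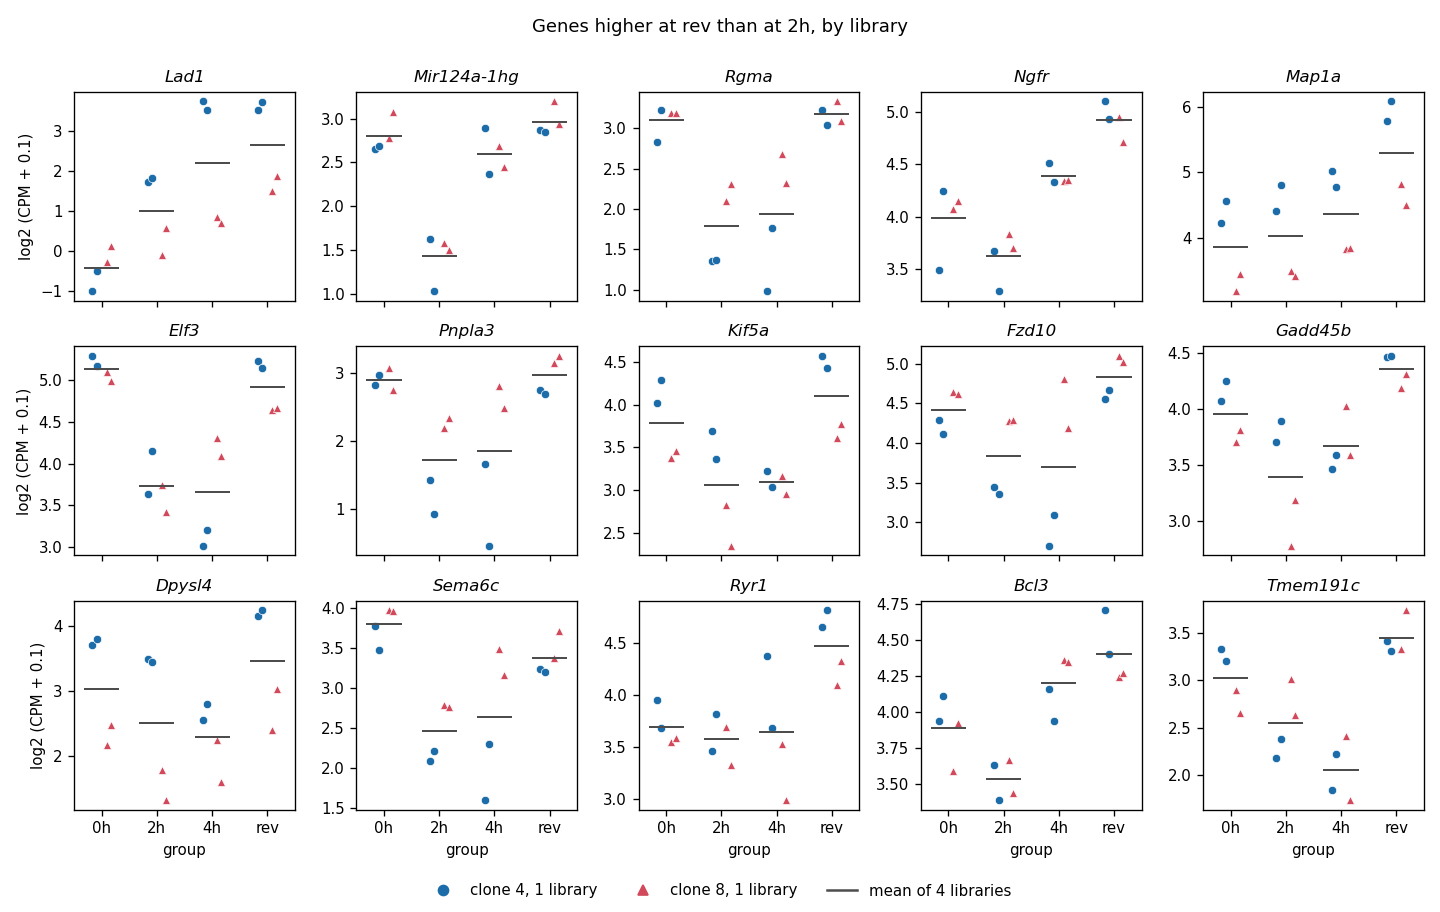
Level (log2 of CPM plus 0.1, vertical axis) of the 15 named higher genes in each of the 16 libraries by group (horizontal axis), with circles for clone 4, triangles for clone 8 and a bar at the mean of 4 libraries. In 11 of the 15 genes all 4 rev libraries are above all 4 2h libraries. In Lad1, Map1a, Kif5a and Dpysl4 the groups are apart only within each clone, which the rule for naming genes required.

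Among 16 tested genes of simple epithelium 2 rose and none fell. They were Lad1 and Cldn4, a tight junction protein, at 17.0 to 22.1 CPM at 2h and 25.6 to 35.7 CPM at rev (0.60, SE 0.13, adjusted p = 0.0208). The simple keratins Krt8 (0.47) and Krt18 (0.28) were not called. Among 9 tested secreted and surface ERK targets 1 rose and 1 fell. Plat, the tissue plasminogen activator, rose from 0.684 to 0.968 CPM at 2h to 1.82 to 3.88 CPM at rev (1.59, SE 0.40, adjusted p = 0.0478), and Epha2 fell, as given above.

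Markers of other cell types were checked in the same libraries. Of the neural list, 4 of 7 genes were tested and 0 were called by edgeR or DESeq2. At an unadjusted p under 0.05, 3 were above and 1 was below 0. The summed level of the list was 66.1 to 98.0 CPM at 2h and 99.95 to 118 CPM at rev, without overlap. At 0h it was 86.4 to 107 CPM, which spans the gap. Sums of other lists also did not overlap between 2h and rev. Among them were the ETS factors (456 to 515 and 388 to 436 CPM) and sterol synthesis (3019 to 3295 and 2786 to 2828 CPM). Tubb3 (0.60, SE 0.18, adjusted p = 0.109) and Sox1 (0.84, SE 0.27, adjusted p = 0.135) were above 0, and Pax6 was below 0 (-1.13, SE 0.33, adjusted p = 0.0894). Neurog2, which marks neural precursors, had at most 2 counts in these 8 libraries. The part of the neural list's sum in the rise of Map1a, Kif5a, Ngfr and Dpysl4 was not tested.

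The summed endoderm list ran from 74.6 to 190 CPM at 2h and from 99.6 to 192 CPM at rev, the mesoderm list from 7.01 to 11.3 and from 6.96 to 10.7 CPM, and the trophoblast list from 7.29 to 25.8 and from 11 to 29.7 CPM. These ranges overlapped. Of the tested members, 0 of 6, 0 of 4 and 0 of 5 were called by edgeR, and 1 in each list was above 0 at an unadjusted p under 0.05. DESeq2 called 1 trophoblast gene higher and none of the others. Sox17, Foxa2, Mesp1 and Cdx2 had at most 9, 1, 2 and 2 counts. All 7 tested genes of the mitochondrial genome had a change above 0, with a median of 0.33, 0 calls by edgeR or DESeq2 and 3 at an unadjusted p under 0.05. The median was 0.09 in clone 4 and 0.56 in clone 8. Their summed level was 9639, 8388, 6232 and 5008 CPM at 2h, and 9554, 9618, 11033 and 5639 CPM at rev. These ranges overlapped, and the highest value was that of the rev library 1 of clone 8. In bulk RNA, fewer cells of a type and less RNA per cell cannot be told apart.

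Lower and higher genes differed in base composition. The median GC content of the transcripts was 45.2% in the 129 lower genes and 56.9% in the 98 higher genes, against 49.7% in all tested genes. All tested genes were put in 5 bins of equal size by GC content, and the median log2 change ran from -0.13 in the lowest to 0.14 in the highest bin. The lowest bin held 55 lower and 3 higher genes, and the highest 15 lower and 60 higher genes. Within libraries, the highest bin stood at -0.302 to -0.082 relative to the lowest at 2h, and at -0.068 to 0.17 at rev, on the log2 scale. With an offset for GC content, an alternative chosen after seeing the data, 126 genes were called, 81 lower and 45 higher. They kept 75 of the 129 lower and 41 of the 98 higher genes. All 15 named lower genes and 13 of the 15 named higher genes kept their call, Sema6c and Tmem191c being the exceptions. The part of GC content in the other changes was not tested beyond this.

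Zinc finger genes whose symbol is Zfp and a number were counted as a group chosen after its values were seen. Of 322 tested, 13 were lower (4.04%, against 1.01% of all genes) and 4 were higher (1.24%), and their median change was -0.02. Their median GC content was 43.9%. With the GC offset, 7 genes so named were lower.

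The falls at rev against 2h were set beside the rises at 4h against 0h, a pair of groups that shares no library with the first. At 4h, 936 genes (7.35%) were higher and 709 (5.56%) were lower than at 0h. Of the 129 genes lower at rev, 62 (48.1%) were higher at 4h and 6 were lower, and 61 were not called. The 62 are 6.62% of the genes higher at 4h. Of the 98 genes higher at rev, 22 (22.4%) were lower at 4h, 11 were higher and 65 were not called, and the 22 are 3.1% of the genes lower at 4h. Without the rev library 1 or 2 of clone 4 the overlap of lower genes with higher genes at 4h was 33 or 41. The overlap of the higher genes was 2 with scaling by library totals, 14 without the rev library 1 of clone 8, and 5 to 13 without single others (all but the 2h library 1 of clone 8, where it was 16).

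All 15 named lower genes were called higher at 4h. Spry4 changed by -6.23 at rev against 2h and by 5.78 at 4h against 0h, Egr1 by -6.46 and 5.65, Dusp6 by -4.60 and 3.78, and Id3 by -3.24 and 2.83. The pair difference was not called for any of these 4 genes (SE 0.46 to 0.64). Their changes at 4h come from the fit with 1 change for both clones, which differed there. Mean levels at 4h in clone 4 and clone 8 were 228 and 54.7 CPM for Spry4 and 259 and 30.6 CPM for Egr1. For Dusp6 they were 77.0 and 21.1 CPM, and for Id3 11.8 and 8.28 CPM. Fos had 1.53 at 4h against 0h and 0.804 to 4.06 CPM in the 4h libraries, where 2h libraries had 8.27 to 26.7 CPM. Its pair difference was not called (adjusted p = 0.057). Of the 15 named higher genes, 7 were lower at 4h (Rgma, Elf3, Pnpla3, Kif5a, Dpysl4, Sema6c and Tmem191c), Lad1 and Map1a were higher, and 6 were not called.

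**Figure D4:**
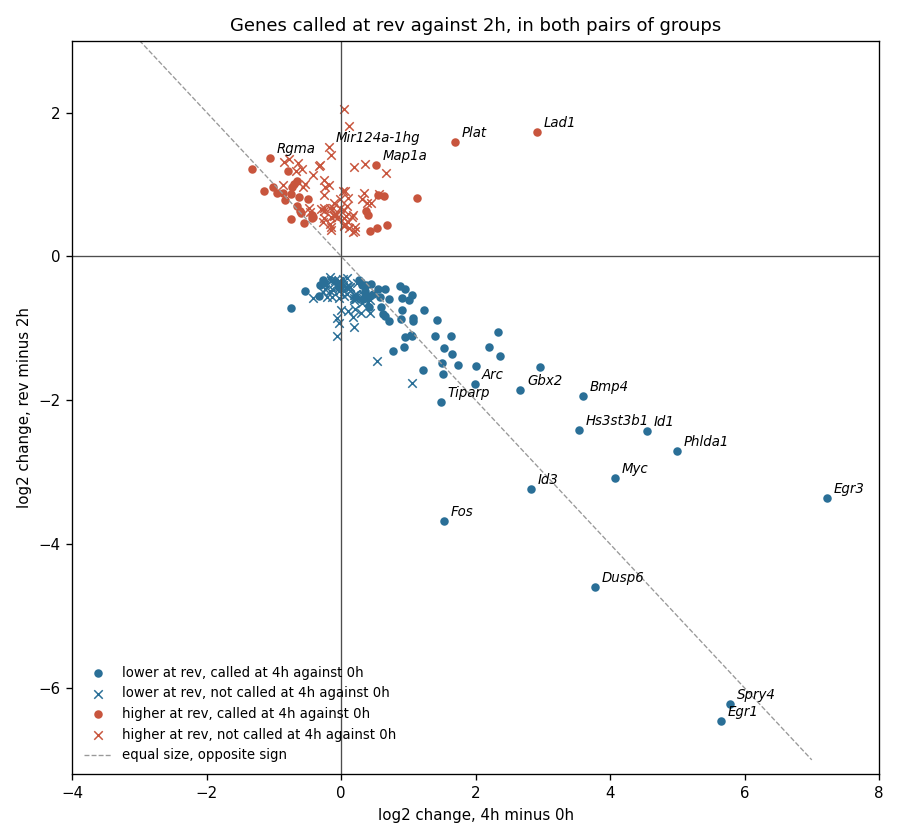
Change at rev against 2h (log2, vertical axis) and at 4h against 0h (log2, horizontal axis) of the 129 lower (blue) and 98 higher (red) genes, with dots for genes called at 4h against 0h, crosses for the others and a dashed line for changes of equal size and opposite sign. With changes taken over both clones, Spry4, Egr1, Dusp6 and Id3 lie near the line, while Lad1 and Plat were higher in both comparisons.

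The difference between the pairs, 2h minus rev less 4h minus 0h, was called for 645 genes (5.06%), with 294 above 0 and 351 below 0. Among them were 28 of the 129 lower and 34 of the 98 higher genes. Genes named for a large negative difference were highest at 4h in clone 4. Cavin1, a coat protein of caveolae, was at 142 and 99.3 CPM in clone 4 and 7.44 and 5.51 CPM in clone 8 at 4h. At 2h it was at 24.5, 30.7, 6.23 and 6.03 CPM, and at rev at 36.5, 39.7, 14.5 and 13.9 CPM (difference -5.25, SE 0.72, adjusted p = 0.000516). Cavin1 was thus not lower at rev than at 2h in either clone. Snai3, a Snail family repressor (-4.84, SE 1.22), Ccnd2, a G1 cyclin (-5.13, SE 1.21), and Pla2g7, a lipase (-4.97, SE 1.18), were also highest there, with 82.3 and 62.5 CPM of Snai3 at 4h in clone 4, 2.92 and 4.75 CPM at 4h in clone 8 and 0.606 to 3.89 CPM at 2h and rev. Without the rev library 1 of clone 4, 346 genes had a called difference, and without the 2h library 1, the 2h library 2 or, in clone 8, the rev library 2, 410, 407 or 405 had.

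Lad1 had a difference of -4.64 (SE 0.54, adjusted p = 0.000133), being higher at rev than at 2h and higher at 4h than at 0h. Ngfr (-1.64, SE 0.20, adjusted p = 0.000171), Map1a (-1.80, SE 0.17, adjusted p = 2.6e-05) and Bcl3 (-1.23, SE 0.19, adjusted p = 0.00157) also differed between the pairs. All rev libraries of Ngfr were above those of the other groups, and those of Map1a were so within each clone. Bcl3 was at 11.9 to 17.1 CPM at 0h and 15.2 to 20.4 CPM at 4h, and its rev libraries were above 4h in clone 4 and below 4h in clone 8. Among genes with a positive difference, Fat2, an atypical cadherin, was at 6.67 to 10.9 CPM at 0h and 1.60 to 4.75 CPM at 4h, but its difference between rev and 2h was not called (-0.73, SE 0.23, adjusted p = 0.13). Slc16a3, a lactate exporter (1.71, SE 0.29), A4galt, a glycolipid galactosyltransferase (1.68, SE 0.22), Rassf4 (1.63, SE 0.33) and Mvb12b, a subunit of the ESCRT-I sorting complex (1.75, SE 0.49), fell between 0h and 4h and were not called at rev against 2h.

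The change at rev against 2h was also compared between the clones. In the model with separate terms for each group in each clone, 60 lower and 38 higher genes were called in both clones. The difference between clones was called for 44 genes (0.345%), 34 of them above 0 (a higher value of clone 8 minus clone 4). It was called for 7 of the 227 genes: Myc, Arc, Ccn1, Junb and Ier2 among the lower, and Aqp3 and the ribosomal RNA n-R5-8s1 among the higher. The count was 20 without the rev library 1, 78 without the rev library 2 and 27 without the 2h library 2 of clone 8, and 17 without the rev library 2 of clone 4. With scaling by library totals it was 4600. The features above 1% of counts took 78.9% and 63.6% of the totals of the clone 8 libraries at rev, and 52.1% and 46.7% at 2h.

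Myc fell by 1.72 in clone 4 and by 4.61 in clone 8, and the difference of -2.89 (SE 0.41, adjusted p = 0.000102) went with a higher level at 2h and a lower level at rev in clone 8. Arc changed by -2.50 in clone 4 and -0.80 in clone 8 (difference 1.7, SE 0.19, adjusted p = 2.6e-06), Ccn1 by -2.09 and -0.39 (adjusted p = 0.00025), Junb by -1.81 and -0.35 (adjusted p = 0.0019) and Ier2 by -1.27 and -0.24 (adjusted p = 0.00014). For these 4 genes clone 4 was above clone 8 at 2h. At rev the clones differed less: Ier2 was at 49.7 and 46.2 CPM in clone 4 and at 56.0 and 52.8 CPM in clone 8.

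Of the clone differences in genes not called over both clones, Prdm14, a repressor in naive cells, went from 9.60 and 8.85 CPM to 19.99 and 21.8 CPM in clone 4. In clone 8 it was at 28.0 and 30.1 CPM at 2h and at 28.2 and 28.3 CPM at rev. The difference between clones was -1.22 (SE 0.21, adjusted p = 0.00271). Pmepa1, an inhibitor of TGF-beta signalling, had a change of 1.60 in clone 4 and of 0.22 in clone 8 (difference -1.39, SE 0.26, adjusted p = 0.00639). Sgk1, a serum-induced kinase, changed by 0.16 in clone 4 and by -0.92 in clone 8 (difference -1.08, SE 0.17, adjusted p = 0.000346), and Npr3, a natriuretic peptide receptor, by 1.47 and -0.04 (difference -1.51, SE 0.35, adjusted p = 0.0405).

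Zfp296, a zinc finger factor of pluripotent cells, went in opposite directions, from 88.6 and 82.4 CPM to 39.1 and 33.2 CPM in clone 4 and from 33.0 and 32.5 CPM to 51.2 and 46.2 CPM in clone 8. It was 1 of 4 genes called in opposite directions in the clones, with Klf10, Amotl2 and Mir6240, and its difference was 1.80 (SE 0.15, adjusted p = 3.4e-09). Also named for a positive difference were CT010467.1, Lars2, Mir6236 and Mir6240, and 4 of the 44 were features above 1% of all counts. CT010467.1, Lars2, Mir6236 and Mir6240 were each highest in the rev library 1 of clone 8, the library with 78.9% of its counts in the features above 1%. Mir6240 was at 59.0 CPM there, at 20.2 CPM in the other rev library of clone 8 and at most at 14.7 CPM in that clone at 2h. Without that library, the clone difference of Mir6240 was 1.47 (SE 0.26, adjusted p = 0.00337, edgeR) in place of 2.29, and its rise in clone 8 was no longer called (0.65, adjusted p = 0.0985). The differences of CT010467.1 (adjusted p = 0.0548), Lars2 (adjusted p = 0.413) and Mir6236 (adjusted p = 0.393) were no longer called, nor was that of Npr3 (adjusted p = 0.107). Zfp296, Klf10 and Amotl2 were still called in opposite directions in the clones.

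**Figure D5:**
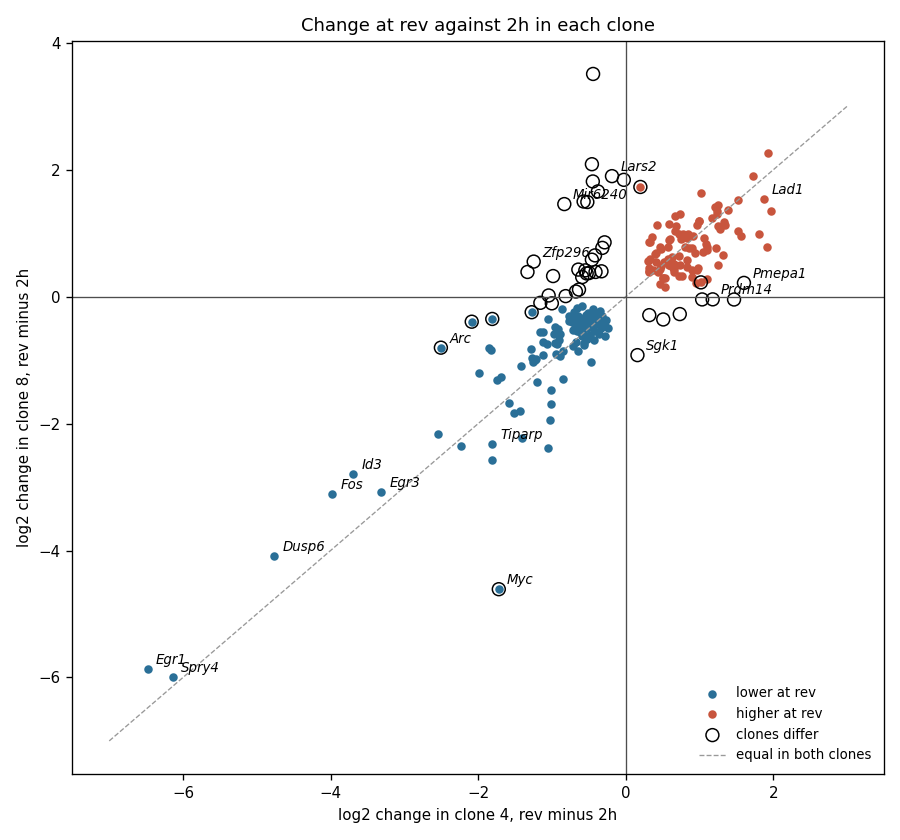
Change at rev against 2h in clone 8 (log2, vertical axis) and in clone 4 (log2, horizontal axis) for the 129 lower (blue) and 98 higher (red) genes, with black rings around the 44 genes whose change differed between the clones and a dashed line for equal changes. All lower genes lie below 0 and all higher genes above 0 in both clones, and Myc, at -1.72 and -4.61, is the lower gene farthest below the line.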

How the data were processed

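RNA-seq libraries were made from rRNA-depleted RNA of 4 groups with 4 libraries each, per the labels' protocols. The values used are raw counts per gene, deposited by the authors. The submitters' processing notes name bcl2fastq 2.19.1, STAR 2.5.3a and the build mm10 (GRCm38). The counting tool, annotation and strand setting are not given in the sources used here. Of 52636 gene IDs, 52489 were matched to GENCODE M21 for names and coordinates.

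Genes passed edgeR's filterByExpr by group (minimum count 10, minimum total 15). Counts were scaled by TMM and fitted with edgeR 4.0.16 (R 4.3.3), by the quasi-likelihood test over all 16 libraries with group and clone as terms (11 residual degrees of freedom), with Benjamini-Hochberg adjustment and calls at an adjusted p under 0.05. Differences between clones used a term for each group within each clone (8 in all). DESeq2 1.42.0, other scaling, filters, thinning and left-out libraries were alternatives, and the code was tested on simulated data. Library totals were 6.16 to 10.4 M counts in the 2 groups compared, and a floor of 3 counts limits low genes, for counting error only.

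Named genes are the 15 largest falls and 15 largest rises among called genes with a mean count of at least 50 in the higher group, both rev libraries on 1 side of both 2h libraries in each clone, and no predicted-gene name, and the 5 largest differences in each direction between pairs and between clones by a like rule. Members of the 32 gene lists may also be named. The members and lists were chosen with earlier results of these data known. Some named or listed genes are not reported here.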

Additional observations from a re-analysis of the deposited data

Results flagged for a closer look

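Among the named lower genes, the level of Hs3st3b1 in the rev library 2 of clone 8 (2.56 CPM) stood apart from the other 3 rev libraries, which were at 3.01 to 3.05 CPM. The gap was set against Dixon's critical value at the 95% level, which by its definition about 1 in 20 groups of 4 normally distributed values pass. All 15 named lower and 15 named higher genes were looked at in this way, at 2h and at rev, so some such gaps would arise without cause. The rev counts of Hs3st3b1 were low, 27 and 31 in clone 4 and 10 and 20 in clone 8.

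The difference 2h minus rev departed from the difference 4h minus 0h for 8 named genes, by edgeR's test of the contrast itself. It was -3.87 for Egr3, whose 0h libraries held at most 1 count, so that this value depends on the prior count. It was -1.41 for Slc39a14. Among the higher genes it was -4.64 for Lad1, -1.34 for Mir124a-1hg, -1.64 for Ngfr, -1.80 for Map1a, -0.928 for Ryr1 and -1.23 for Bcl3.

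The change at rev differed between the clones for 2 named genes, by the interaction term. The value for clone 8 minus that for clone 4 was -2.89 for Myc and 1.7 for Arc.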

How the results depend on the processing

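Of the 659 values of named genes under alternatives, 597 kept their direction and side of the threshold, and none reversed. These genes were picked for large called changes with the groups apart in each clone, so reversals were unlikely. At an adjusted p under 0.01 and at a log2 change of at least 1, the changes are those of the main fit and could not reverse. The count of 227 genes changed was 157 with library totals (13 higher, 144 lower, 91 of them shared), 483 without a filter on low counts, 118 with counts thinned to 1 total, 71 at an adjusted p under 0.01, 60 at an absolute log2 change of at least 1, 831 with only the 8 libraries, 41 with no clone covariate, 1155 with the group and clone model averaged over clones, 422 in clone 4 alone, 448 in clone 8 alone, 314 with DESeq2 and 126 with the GC offset (chosen after seeing the data). Leaving out 1 library gave 80 to 195. The 62 genes lower at rev and higher at 4h became 124 without the filter, 40 thinned, 29 at 0.01, 32 at a log2 change of 1, 20 with no clone covariate, 202 in the averaged model and 33 to 55 with a library left out. The 22 genes higher at rev and lower at 4h became 2 with library totals, 42 without the filter, 9 thinned, 2 at 0.01, 5 at a log2 change of 1, 1 with no clone covariate, 135 in the averaged model, 58 in clone 4 alone, 8 with the GC offset and 5 to 16 with a library left out. The 645 genes that differed between the pairs became 318 with library totals, 1008 without the filter, 416 thinned, 120 at 0.01 and 346 to 591 with a library left out. The 44 genes that differed between clones became 4600 with library totals, 87 without the filter, 24 thinned, 22 at 0.01, 29 with DESeq2 and 17 to 78 with a library left out. The 6 feedback inhibitors became 3 at 0.01, 3 at a log2 change of 1, 10 with only the 8 libraries, 3 with no clone covariate and 3 to 5 with a library left out. The 7 immediate-early genes became 3 with no clone covariate, 3 in clone 8 alone and 5 to 7 with a library left out. The naive genes called higher, 0 as reported, were 1 without the filter, 2 with only the 8 libraries, 3 in the averaged model, 1 in clone 4 alone, 2 in clone 8 alone and 0 with any library left out. The cause of these shifts was not tested.

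Libraries of 2h and rev with the same number had correlated deviations of 0.322 in clone 4 and -0.193 in clone 8, so the numbers were not taken as a pairing. Over the pairs compared, such values ran from -0.292 to 0.322 in clone 4 and from -0.424 to 0.285 in clone 8. The value for 2h and rev was thus the highest in clone 4, and a pairing there is not excluded. With the number as a replicate block, 158 genes were called, the 22 became 12, the 645 became 406, the 7 immediate-early genes became 5 and the 6 feedback inhibitors became 4. Of the named genes Jun was no longer called in that fit (adjusted p = 0.0627). The depth of the rev library 1 of clone 8, 1.30 M counts outside the features above 1% of counts, limits low genes most.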
